A study of Mus musculus with 2 samples.

Results

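The genes described here are 10 members of vascular endothelial growth factor (VEGF) and angiopoietin signalling, Vegfa, Vegfb, Vegfc, Pgf, Flt1, Kdr, Nrp1, Angpt1, Angpt2 and Tek, of 32285 genes in the files. They were matched by gene symbol, and their unique molecular identifiers (UMIs, 1 per captured RNA molecule) were summed by cell type and library in single cells of the mouse retinal pigment epithelium (RPE), choroid and sclera. The study asked how RPE cells respond to a low dose of doxorubicin (Dox), a DNA-damaging chemotherapy drug used here to induce senescence. The control group was C57BL/6J mice given a subretinal injection of PBS. The Dox group was C57BL/6J mice given 1 µl of Dox at 100 ng/µl by the same route. All mice were male and 3 months old, tissue was taken 7 days after injection, and 10 eyes of 5 mice were pooled into 1 library per group. With 1 library per condition no test between conditions was possible, so no p-value is given, and an effect of Dox cannot be told apart from differences between the injections, the pools of mice or the library preparations.

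VEGF ligands bind receptor tyrosine kinases on endothelial cells, and in the eye the RPE is known as the source of VEGF that maintains the fenestrated capillaries beneath it. Angiopoietins act in parallel through the receptor encoded by Tek: Angpt1 is an agonist that stabilises vessels, while Angpt2 is a context-dependent antagonist. Neuropilin 1, encoded by Nrp1, is a co-receptor for VEGF-A and for semaphorins.

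All 10 members were found in the files, and their loci are given on the GRCm38 (mm10) build from the GENCODE annotation. Among the ligand genes, Vegfa lies at chr17:46016993-46032369, Vegfb at chr19:6982473-6987651, Vegfc at chr8:54077606-54187096 and Pgf at chr12:85166635-85177790. Angpt1 lies at chr15:42424723-42676977 and Angpt2 at chr8:18690263-18741562. Of the receptor genes, Flt1 lies at chr5:147561604-147726011 and Kdr on the same chromosome at chr5:75932827-75978458. Nrp1 lies at chr8:128358604-128503363 and Tek at chr4:94739289-94874976. Angpt2 overlaps Mcph1 on the opposite strand, Angpt1 overlaps Gm17473 on the opposite strand, and Nrp1 overlaps Mir1903 on its own strand. No annotated gene overlaps the other 7 members.

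RefSeq promoter windows (GRCm38.p6) were matched for 8 of the 10 members, all but Angpt1 and Angpt2. The 250 bases before the start are shown for Flt1, Kdr and Tek, the receptor genes whose levels were far higher in endothelial-like cells than in any other type, and for Vegfa, the ligand highest in RPE cells. Capitals mark GGAA or its reverse complement TTCC, the core of ETS factor motifs, in the receptor genes, and GGGCGG or its reverse complement, the GC box core, in Vegfa. The windows are chr5:147726012-147726261 for Flt1, chr5:75978456-75978705 for Kdr and chr17:46032378-46032627 for Vegfa, all on the minus strand, and chr4:94739039-94739288 on the plus strand for Tek.
Flt1: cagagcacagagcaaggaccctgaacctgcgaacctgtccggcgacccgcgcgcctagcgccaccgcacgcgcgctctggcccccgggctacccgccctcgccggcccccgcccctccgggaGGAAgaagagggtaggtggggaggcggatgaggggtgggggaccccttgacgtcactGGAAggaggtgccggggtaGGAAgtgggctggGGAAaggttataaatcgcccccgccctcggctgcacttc
Kdr: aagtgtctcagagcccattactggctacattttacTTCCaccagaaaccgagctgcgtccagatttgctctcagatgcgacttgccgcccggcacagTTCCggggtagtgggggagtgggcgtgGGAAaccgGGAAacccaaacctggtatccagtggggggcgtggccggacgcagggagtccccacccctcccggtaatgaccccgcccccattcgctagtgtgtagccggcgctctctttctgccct
Tek: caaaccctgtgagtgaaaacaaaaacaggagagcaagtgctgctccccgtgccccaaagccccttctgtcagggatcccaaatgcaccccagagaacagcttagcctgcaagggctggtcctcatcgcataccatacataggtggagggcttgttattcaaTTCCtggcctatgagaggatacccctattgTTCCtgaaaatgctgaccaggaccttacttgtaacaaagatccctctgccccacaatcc
Vegfa: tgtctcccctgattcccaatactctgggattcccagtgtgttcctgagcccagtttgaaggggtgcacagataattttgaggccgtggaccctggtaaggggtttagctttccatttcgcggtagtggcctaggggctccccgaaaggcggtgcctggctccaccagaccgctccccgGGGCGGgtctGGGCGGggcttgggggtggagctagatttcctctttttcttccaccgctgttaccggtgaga
GGAA was found 4 times in Flt1, 4 times in Kdr and 2 times in Tek on either strand. It is a short motif that 93.4% of 32851 promoter windows of this length hold, with a median of 3 per window, so its presence sets none of these genes apart. GGGCGG was found 2 times in the Vegfa window, where 32.7% of windows hold it, and it was also found 3 times in Flt1 and 2 times in Kdr, but not in Tek. ACGTG, the core of the hypoxia response element, was not found in these 4 windows and is held by 16.6% of all windows. Vegfa has a second RefSeq window, at chr17:46025164-46025413, which holds ACGTG 1 time and GGGCGG 1 time. The start that this window precedes lies 7206 bases from the annotated gene start, within the Vegfa gene. Sequence further upstream than the windows was not searched.

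The matrices held 20381 control and 15649 Dox cells, of which 20180 and 15426 passed the filters, with medians of 4495 and 4995 UMIs per cell. Clusters were named from marker genes, with the 10 members left out of the genes used for clustering. Of the RPE-like cluster, cells with at least 10 UMIs of Rpe65, the visual cycle isomerase of RPE, were taken as RPE cells: 1258 control and 1300 Dox cells, with medians of 18582 and 21836 UMIs. Levels are given as CPM, the summed UMIs of a gene over the cells of a type per 1000000 UMIs of that type. Of the 10 RPE markers, 9 were at 10 CPM or more in these cells in both libraries. The same count held in every other type named below, so it does not set RPE cells apart. The summed level of the 10 markers was 103985 CPM in control and 105563 in Dox RPE cells. The next highest named type was melanocyte-like, at 14880 and 32025. The other named types were fibroblast-like (11308 control and 8464 Dox cells), melanocyte-like (2123 and 2071), macrophage or dendritic-like (972 and 531), smooth muscle or pericyte-like (907 and 400), NK or T-like (462 and 275), endothelial-like (410 and 241) and Schwann-like (61 and 34). The endothelial-like cells had all 12 endothelial markers at 10 CPM or more in both libraries. A cluster led by Cxcl10 and one led by Gm26917 stayed unnamed. The libraries shared 441 barcodes, of which 427 were kept, and 31.9% of those were of the same cell type in both. No share expected by chance was computed, so carry-over between the libraries cannot be read from these counts.

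UMIs of RPE genes were also counted in cells of other types. Rpe65 stood at 5089 CPM in control and 4980 in Dox in RPE cells, and still at 294 and 366 in NK or T-like cells, which are not known to express it. The NK or T-like level of each member is given for comparison, and in it free RNA and RNA of the cells themselves cannot be told apart. Vegfa UMIs per 100 Rpe65 UMIs were 2.54 and 2.64 in RPE cells and 13.6 and 16.2 in NK or T-like cells. The part of RPE RNA in the Vegfa UMIs of NK or T-like cells was not tested. Each interval in parentheses is an exact 95% interval that covers counting error only. A 5′ library with 1 count per gene does not separate the splice forms of Vegfa or the soluble and membrane forms of Flt1.

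Vegfa, which encodes the main VEGF ligand, was highest in RPE cells among the named types in both libraries. Its level in RPE cells was 129 CPM in control (124.9 to 133.9, from 3171 UMIs) and 132 in Dox (127.5 to 135.9, from 3814 UMIs). The unnamed cluster led by Gm26917 stood above RPE cells, at 152 and 223. A UMI of Vegfa was seen in 82.2% of control and 84.3% of Dox RPE cells, against 13.2% and 18.9% of NK or T-like cells, whose median depths were 3725 and 3906 UMIs. With each cell thinned to 2000 UMIs and shallower cells left out, the shares in RPE cells were 24.6% and 24.7%, and those in NK or T-like cells 7.20% and 10.4%. RPE cells held 3.24 times the NK or T-like level in control and 2.22 times in Dox. Single RPE cells had a median of 2 Vegfa UMIs in both libraries and up to 24. In the Dox library the fibroblast-like level, 59.4, differed from the NK or T-like level, 59.2, by 0.01 on the log2 scale (-0.32 to 0.35). In control the same levels were 52.1 and 39.9. Vegfa UMIs per 100 Rpe65 UMIs were 26.0 and 21.0 in fibroblast-like cells, above the 2.54 and 2.64 of RPE cells. RPE cells made up 21.2% of all control UMIs but 39.2% of Vegfa UMIs, and 29.2% and 44.7% in Dox.

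Vegfb, a ligand of the Flt1 receptor, had a different order. It was highest in melanocyte-like cells, at 264 control (251.4 to 277.2) and 311 Dox (291.6 to 331.6) CPM. RPE cells followed at 119 and 124, and the intervals of both libraries for RPE overlapped. The NK or T-like level was 57.3 and 48.0. In control, the Schwann-like level of 125 from 25 UMIs could not be told from that of RPE cells. The melanocyte-like cluster was shallow, with medians of 1219 and 782 UMIs, and Hbb-bs, a haemoglobin gene, led it ahead of Pmel. At a finer resolution, 909 control and 609 Dox cells formed a melanocyte-like cluster without those cells, in which Vegfb was 289 and 405.

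Vegfc, the ligand of lymphatic VEGF signalling, was detected at low counts. Endothelial-like cells had the highest level, 31.4 in control (23.6 to 41.0, from 54 UMIs) and 41.0 in Dox (28.8 to 56.4, from 37 UMIs). RPE cells stood at 11.0 and 10.5, with intervals that overlapped those of NK or T-like cells at 7.05 and 8.25. Fibroblast-like cells had 6.03 and 5.84 CPM, with intervals that also overlapped those of NK or T-like cells.

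Pgf, which encodes placental growth factor, a ligand of Flt1 but not of Kdr, was highest in fibroblast-like cells. Its level was 682 in control and 804 in Dox fibroblast-like cells, with 80.6% and 83.8% of all its UMIs. The unnamed cluster led by Cxcl10 was near that level, at 663 and 707. All other named types except RPE lay between 93.2 and 203, a range that includes the NK or T-like level of 196 and 173. RPE cells had the lowest level of the 8 named types, 41.4 and 25.5.

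Angpt1, the agonist of the Tek receptor, followed the same order at its top and bottom. Fibroblast-like cells stood at 342 in control and 402 in Dox, with 79.3% and 80.9% of its UMIs, and RPE cells at 19.9 and 14.9. The NK or T-like level was 82.2 and 117, above the RPE level in both libraries. Smooth muscle or pericyte-like cells, the cells usually held to supply Angpt1 to vessels, had 108 (98.9 to 118) and 115 (102 to 130). Their interval lay above that of NK or T-like cells in control, 70.5 to 95.3, and overlapped it in Dox, 99.3 to 137.

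Angpt2 was sparse, with 460 control and 295 Dox UMIs over all kept cells. Schwann-like cells had the highest level, 30.1 and 39.7, but from 6 and 5 UMIs, and their intervals overlapped those of smooth muscle or pericyte-like cells at 16.5 and 18.0 and endothelial-like cells at 11.6 and 15.5. RPE cells had 0.693 and 0.380, from 17 and 11 UMIs, with intervals that overlapped those of the NK or T-like level of 1.41 and 2.25, from 3 UMIs each.

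**Figure D1:**
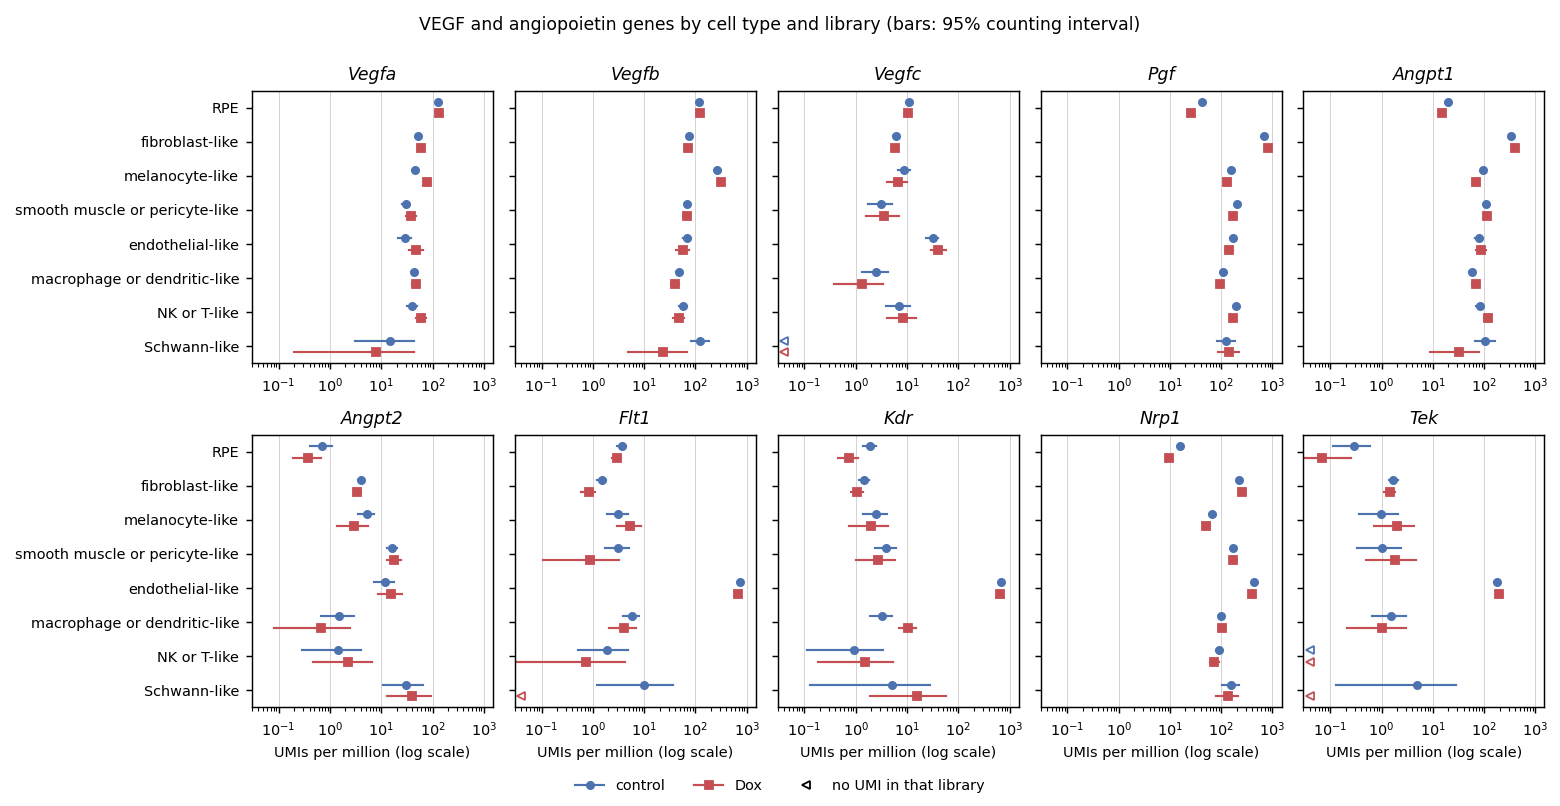
Level of each of the 10 members in 8 named cell types, as CPM on a log axis, for the control library (blue circles) and the Dox library (red squares), with 95% counting intervals and open triangles where a library had no UMI. Vegfa peaked in RPE cells (129 and 132), Vegfb in melanocyte-like cells (264 and 311), Pgf and Angpt1 in fibroblast-like cells, and Flt1, Kdr, Nrp1, Tek and Vegfc in endothelial-like cells.

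The 4 receptor genes were all highest in endothelial-like cells in both libraries. Flt1, which encodes VEGF receptor 1, was at 731 CPM in control (691.3 to 772.8) and 688 in Dox (635.4 to 744.7). Kdr, which encodes VEGF receptor 2, the main signalling receptor, was at 670 (631.9 to 709.9) and 637 (586.5 to 691.8). Endothelial-like cells made up 1.49% of control and 0.910% of Dox UMIs but held 80.8% and 78.4% of Flt1 UMIs and 84.5% and 80.4% of Kdr UMIs. The NK or T-like level was 1.88 and 0.750 for Flt1, from 4 UMIs and 1 UMI, while Kdr had 2 UMIs in each library. In RPE cells Flt1 was at 3.63 and 2.90 and Kdr at 1.88 and 0.725, with intervals that overlapped those of NK or T-like cells.

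Tek, the angiopoietin receptor, was at 176 in control (156.5 to 196.8) and 197 in Dox (169.1 to 228.2) endothelial-like cells. No Tek UMI was seen in 462 control and 275 Dox NK or T-like cells. Against a floor of 3 UMIs in those cells, the endothelial-like level was at least 125-fold higher in control and at least 87.6-fold higher in Dox. Fibroblast-like cells held 102 and 72 Tek UMIs, or 1.70 and 1.45 CPM.

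Nrp1 was the broadest receptor gene. Endothelial-like cells had 428 and 403, fibroblast-like cells 221 and 249, and smooth muscle or pericyte-like cells 171 and 169, while the NK or T-like level was 92.1 and 73.5. The interval of each of these 3 types lay above that of NK or T-like cells in both libraries. Endothelial-like cells held 3.82% and 2.16% of Nrp1 UMIs, and fibroblast-like cells 69.3% and 73.6%. RPE cells were the lowest of the 8 types, at 15.8 and 9.56.

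Receptors were seen together in single endothelial-like cells. Kdr and Flt1 both had a UMI in 220 of 410 control cells (53.7%, 48.7 to 58.6) and 99 of 241 Dox cells (41.1%, 34.8 to 47.6). All 4 receptors had a UMI in 19.8% of control and 21.2% of Dox cells, and none had one in 7.56% and 15.8%. Median depth was 3634.5 and 2983 UMIs, and shares of this kind depend on depth. A subcluster led by Pcsk1n, described below, was 17.6% of the control and 26.1% of the Dox cells. The part of depth and of that subcluster in the differences between the libraries was not tested. With cells thinned to 2000 UMIs, possible for 321 control and 170 Dox cells, the share with Kdr was 52.8% and 47.1%. Over all 410 and 241 cells, unthinned, it was 60.5% and 47.7%. The share with Flt1 was 72.3% and 63.5% thinned, against 82.4% and 66.0% over all cells unthinned. The thinned shares leave out the shallower cells, so each pair differs in the cells counted as well as in depth.

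The first comparison between the libraries was of the ligands in RPE cells. Past 1.5-fold, 0 of 6 ligands were higher and 2 were lower in Dox, Pgf and Angpt2, where 2.54% of 13858 genes with at least 20 UMIs were higher and 9.29% were lower. Over every kept cell with at least 10 Rpe65 UMIs, whatever its cluster (1526 control and 1630 Dox cells), none of the 6 was past 1.5-fold, and the log2 ratio of Pgf was -0.31. The Dox over control log2 ratio of Vegfa was 0.03 (-0.04 to 0.09) and that of Vegfb was 0.06 (-0.01 to 0.14), and both intervals include 0. Vegfc had a log2 ratio of -0.07 (-0.32 to 0.17). For Vegfa the interval leaves out a change of 1.5-fold in either direction, as far as counting error goes. The spread between mice is not in it. The paper states that subretinal Dox affected only a part of the RPE. The ratio is over all RPE cells and does not bound a change in the affected part.

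Pgf in RPE cells had 1015 control and 738 Dox UMIs, a log2 ratio of -0.70 (-0.84 to -0.56). Angpt1 had 488 and 432 UMIs and -0.42 (-0.61 to -0.23). Angpt2 had -0.87 with an interval from -2.11 to 0.31 that includes 0. Of the receptor genes, Nrp1 had a log2 ratio of -0.72 (-0.95 to -0.50), and Kdr had -1.37 (-2.19 to -0.60) from 46 and 21 UMIs. Kdr stood at 1.45 and 1.07 CPM in fibroblast-like cells, and the 12 endothelial markers summed to 367 and 316 in RPE cells, with 0 of 12 higher in Dox. The summed level of 12 fibroblast markers in RPE cells was 1104 in control and 554 in Dox. Of these, 1 of 12 was higher in Dox, 8 of 12 were at 10 CPM or more in both libraries, and Kera was at 0 in both. Pgf UMIs per 100 UMIs of Dcn, the fibroblast gene decorin, were 7.56 and 9.38 in RPE cells and 6.83 and 8.86 in fibroblast-like cells. For Angpt1 they were 3.63 and 5.49 in RPE cells and 3.42 and 4.43 in fibroblast-like cells, and for Nrp1 2.88 and 3.52 against 2.22 and 2.75. The part of fibroblast RNA in the lower Pgf, Angpt1 and Nrp1 levels of Dox RPE cells was not tested.

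Division of the RPE cells into 4 subclusters showed where these UMIs lay. The subclusters were named by their leading gene and are described without a test. One led by Ddc, the dopa decarboxylase gene, held 748 control and 824 Dox cells. One led by Mgp and Apod, with Dcn and Lum also among its leading genes, held 317 (25.2% of RPE cells) and 173 (13.3%), and 59.0% and 66.5% of its cells were among the highest doublet scores of their library. Pgf was at 135 in control and 139 in Dox in that subcluster and between 4.31 and 12.8 in the other 3. Angpt1 was at 62.2 and 78.8 against 3.23 to 12.8, and Nrp1 at 45.7 and 55.7 against 1.65 to 8.51. For all of these genes the level in the Mgp-led subcluster was below the NK or T-like level of the same library. Within it the log2 ratio of Pgf was 0.04 (-0.11 to 0.20), that of Angpt1 0.34 (0.12 to 0.56) and that of Nrp1 0.28 (0.03 to 0.54). Without that subcluster, an alternative chosen after seeing the data, the log2 ratio over RPE cells was -0.27 for Pgf and -0.14 for Angpt1. In the subcluster led by Ddc, where Dcn was 66.5 and 42.5, the ratio was -0.45 (-0.82 to -0.08) for Pgf, -0.31 (-0.87 to 0.24) for Angpt1 and -1.14 (-1.74 to -0.56) for Nrp1, the last from 71 and 40 UMIs. In the subcluster led by Serpina3n the ratio of Nrp1 was -1.71 (-3.02 to -0.46, from 15 and 10 UMIs), and in that led by Gm26917 it was -1.82 (-4.32 to 0.14). The latter came from 10 and 3 UMIs, under the minimum of 20, and its interval includes 0. The Nrp1 ratio was thus below 0 in each of the 3 subclusters other than the Mgp-led one. In the subclusters led by Serpina3n and by Gm26917, Pgf had 0.72 (-0.23 to 1.78) and 0.22 (-0.93 to 1.39), and Angpt1 had 0.08 (-0.71 to 0.91) and -0.41 (-1.63 to 0.79).

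Vegfa differed among RPE subclusters in the same order in both libraries. In the subcluster led by Gm26917 (98 control and 105 Dox cells) it was 316 and 317 CPM. These cells had medians of 10700 and 11149 UMIs, a median mitochondrial share of 6.27% and 6.25%, and Malat1, a nuclear long non-coding RNA, at 30775 and 28656 against 7662 to 10434 elsewhere in RPE. In the subcluster led by Ddc Vegfa was 134 and 144, and in that led by Mgp 106 and 127. The lowest level was in the subcluster led by Serpina3n, a protease inhibitor gene, at 81.6 (71.3 to 92.9) and 59.7 (53.7 to 66.2). The NK or T-like level was 39.9 (31.9 to 49.4) and 59.2 (46.9 to 73.8). The Serpina3n-led interval lay above it in control and overlapped it in Dox. The Ddc-led level was 1.64 times the Serpina3n-led one in control and 2.42 times in Dox.

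The subcluster led by Serpina3n held 95 control (7.55%) and 198 Dox (15.2%) RPE cells. Cdkn1a, the gene of the cell cycle inhibitor p21, was at 58.6 and 333 in it, against 14.9 and 18.5 in the subcluster led by Ddc, and Rpe65 was at 2686 and 2102, against 5858 and 6037. Within it the Dox over control log2 ratio of Vegfa was -0.45 (-0.69 to -0.21) and that of Vegfc was -1.46 (-2.41 to -0.53, from 24 and 19 UMIs). Of its cells, 28.4% in control and 0% in Dox were among the highest doublet scores, and the 12 fibroblast markers summed to 310 in control and 86.4 in Dox, with 0 of 12 higher in Dox. Their part in these ratios was not tested. Vegfb was at 106 and 105 there, a log2 ratio of -0.01 (-0.21 to 0.19). In the subcluster led by Mgp the ratio of Vegfa was 0.27 (0.10 to 0.43), in that led by Ddc it was 0.11 (0.02 to 0.20), and in that led by Gm26917 it was 0.01 (-0.20 to 0.22). Differences between these ratios were not tested.

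**Figure D2:**
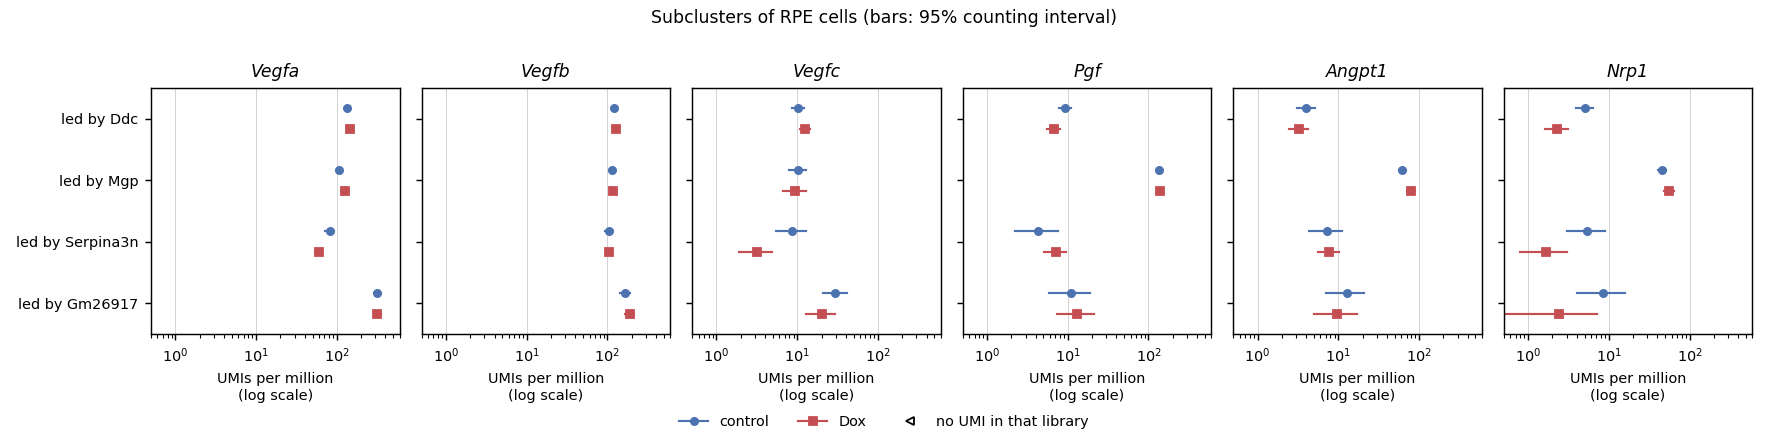
CPM, on a log axis, of 5 ligand genes and Nrp1 in the 4 subclusters of RPE cells, for control (blue circles) and Dox (red squares), with 95% counting intervals. Vegfa was highest in the subcluster led by Gm26917 (316 and 317) and lowest in that led by Serpina3n (81.6 and 59.7). Pgf, Angpt1 and Nrp1 were higher in the subcluster led by Mgp than in the others, but below the NK or T-like level in both libraries.

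In fibroblast-like cells of the stroma, 0 of 6 ligands were past 1.5-fold in either direction, where 2.73% of 15363 genes were higher and 5.12% lower. Pgf had 41033 control and 39943 Dox UMIs and a log2 ratio of 0.24 (0.22 to 0.26). Angpt1 had 20555 and 19967 UMIs and a ratio of 0.23 (0.21 to 0.26), and Nrp1 had 0.17 (0.14 to 0.21). These narrow intervals reflect the number of UMIs and not the spread between mice. Vegfa had a ratio of 0.19 (0.12 to 0.26) in these cells, beside 0.57 (0.11 to 1.03) in NK or T-like cells and beside Rpe65, the RPE gene, at 200 and 283 CPM in fibroblast-like cells. Vegfb had -0.07 (-0.14 to -0.01), Vegfc -0.05 (-0.28 to 0.18) and Angpt2 -0.24 (-0.53 to 0.05).

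Outside RPE cells, Vegfa was higher in the Dox library in several types that hold RPE RNA. In melanocyte-like cells it was 45.4 and 79.1, a log2 ratio of 0.80 (0.55 to 1.05), while Rpe65 was 794 and 1633. In the melanocyte-like cluster of the finer resolution Vegfa was lower, at 22.1 and 35.8, with Rpe65 at 280 and 619. In the unnamed cluster led by Gm26917 it was 152 and 223, with Rpe65 at 1508 and 2504. In endothelial-like cells it was 29.1 from 50 UMIs and 48.7 from 44 UMIs, a ratio of 0.74 (0.12 to 1.36), with Rpe65 at 242 and 474. Vegfa UMIs per 100 Rpe65 UMIs were 5.72 and 4.84 in melanocyte-like cells of the first clustering and 12.05 and 10.28 in endothelial-like cells, beside 2.54 and 2.64 in RPE cells. The part of RPE RNA in the higher Vegfa levels of these types in Dox was not tested.

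The last comparison between the libraries was of the receptors in endothelial-like cells, and each of the 4 intervals of the ratio included 0. Of the 4 receptors, 0 were past 1.5-fold in either direction, where 7.8% of 9443 genes were higher and 8.85% lower. The log2 ratio of Flt1 was -0.09 (-0.23 to 0.05) and that of Kdr was -0.07 (-0.22 to 0.07). Nrp1 had -0.09 (-0.27 to 0.10) and Tek 0.16 (-0.11 to 0.44). Markers of another cell type differed within these cells: the 11 macrophage or dendritic markers summed to 338 in control and 1542 in Dox, with 9 of 11 higher in Dox, 8 and 7 of 11 at 10 CPM or more, and none at 0. The difference lay in the Pcsk1n-led subcluster, at 172 and 4562, while the sum was lower in Dox in the other 4. Without that subcluster, an alternative chosen after seeing the data, the ratio was -0.04 for Flt1, -0.02 for Kdr, 0.09 for Nrp1 and 0.11 for Tek. The Kdr level in macrophage or dendritic-like cells was 3.22 in control and 10.5 in Dox, but from 17 UMIs in 8 cells and 31 UMIs in 6 cells. The 12 endothelial markers summed to 301 and 272 over all macrophage or dendritic-like cells, which does not give their level in the few cells with a Kdr UMI.

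**Figure D3:**
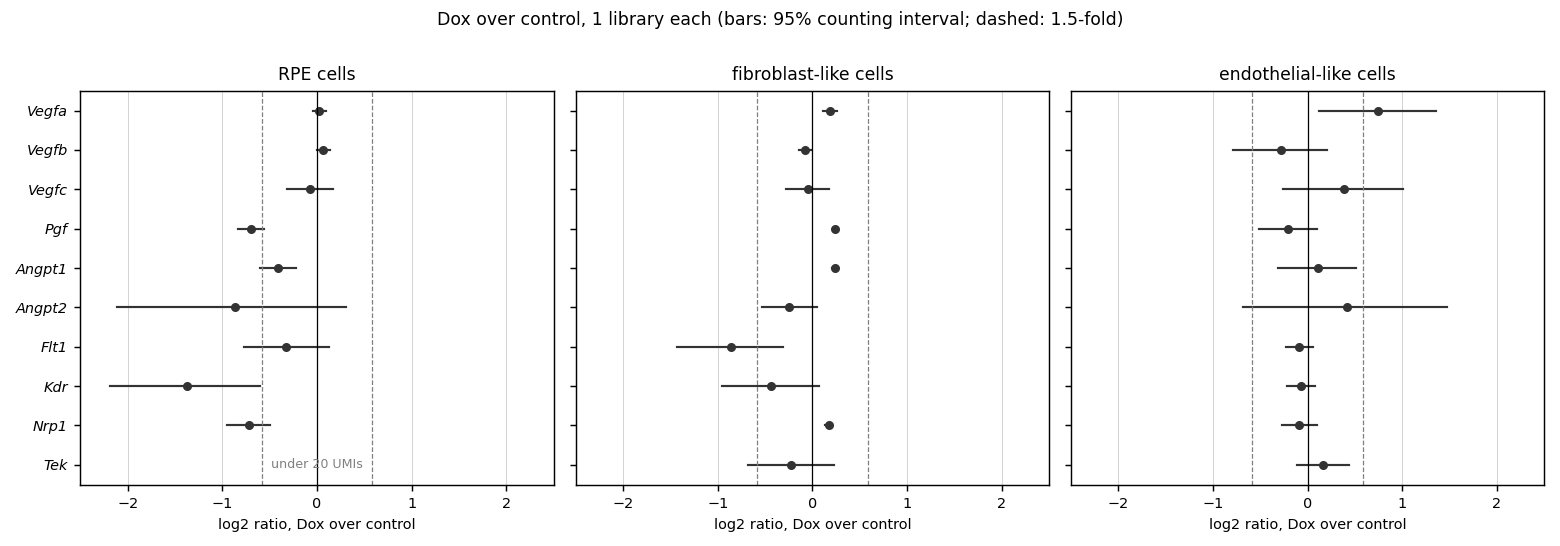
Log2 ratio of the Dox over the control level for each member in RPE, fibroblast-like and endothelial-like cells, with 95% counting intervals and dashed lines at 1.5-fold. Vegfa and Vegfb in RPE cells and the 4 receptors in endothelial-like cells have intervals that include 0. Pgf, Kdr and Nrp1 lie below the lower dashed line in RPE cells, with intervals that leave out 0. In RPE cells the levels of Pgf and Nrp1 were below the NK or T-like level in both libraries. The interval of the Kdr level there overlapped that of NK or T-like cells. Tek had fewer than 20 UMIs in RPE cells and is not plotted there.

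Subclusters of the endothelial-like cells separated the receptors. One led by Apln held 99 control and 45 Dox cells. It had all 3 capillary markers at 10 CPM or more over both libraries together, the basis of each such count here, as the Gm2115-led and Pcsk1n-led subclusters described next also had, but Car4 was among the leading genes of this one alone, at 78.9 and 72.7, and Plvap stood at 11331 and 13090 against at most 3632 elsewhere. It is called capillary-like. One led by Gkn3 held 40 and 10 cells. It had all 5 arterial markers at 10 CPM or more, with Bmx among its leading genes at 199 and 275 and Gja4 at 802 and 739 against at most 83.1 elsewhere. It is called artery-like. One led by Ccl21a, with Selp and Vwf among its leading genes (112 and 70 cells), had 2 of the 3 vein markers, 3 of the 4 lymphatic markers and also all 5 arterial markers at 10 CPM or more, and stayed unnamed. So did a shallow one led by Gm2115 (87 and 53 cells, medians of 1053 and 1026 UMIs) and one led by Pcsk1n (72 and 63 cells), in which Lum and Fbln1 were among the leading genes and 80.6% and 22.2% of cells had high doublet scores.

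Kdr was 1808 CPM in control (1675.1 to 1948.1) and 1901 in Dox (1711.4 to 2106.3) capillary-like cells. In artery-like cells it was 112 and 137, and in the subcluster led by Ccl21a 225 and 255. The capillary-like level was 8.05 times that of the Ccl21a-led cells in control and 7.45 times in Dox. Nrp1 followed at 787 and 867 in capillary-like cells against 231 and 272 in Ccl21a-led cells. Flt1 was more even, at 929 and 1044 in capillary-like cells, 877 and 830 in Ccl21a-led cells and 826 and 567 in artery-like cells. A UMI of Kdr was seen in 96.0% of control and 97.8% of Dox capillary-like cells. Between the libraries, the log2 ratio of Kdr in capillary-like cells was 0.07 (-0.11 to 0.26). In the subcluster led by Pcsk1n, with median depths of 7398.5 and 2586 UMIs, the ratio was -0.47 (-0.85 to -0.10) for Flt1, -0.44 (-0.83 to -0.07) for Kdr and -0.60 (-0.99 to -0.22) for Nrp1. The part of its macrophage or dendritic RNA and its depth in these ratios was not tested.

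Tek was at 216 and 255 in capillary-like cells and at 208 and 255 in Ccl21a-led cells. In artery-like cells it was 348 in control (262.8 to 451.8) and 155 in Dox (70.7 to 293.5), the Dox value from 9 UMIs in 10 cells, and the ratio on the log2 scale was -1.17 (-2.37 to -0.14). Vegfc was highest in artery-like cells, at 155 in control (100.5 to 229.3, from 25 UMIs) and 120 in Dox (48.3 to 247.7, from 7 UMIs). The Dox interval includes the Dox level of Ccl21a-led cells, 51.1 from 15 UMIs, so that order is not settled in Dox. Capillary-like cells held 3 control UMIs of Vegfc and 0 Dox UMIs. Angpt2 was 31.6 and 36.4 in capillary-like cells, from 12 of the 20 control and 7 of the 14 Dox endothelial-like UMIs. Pgf and Angpt1 were high in the subcluster led by Pcsk1n alone, Pgf at 451 and 428 and Angpt1 at 207 and 260, beside its fibroblast genes.

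**Figure D4:**
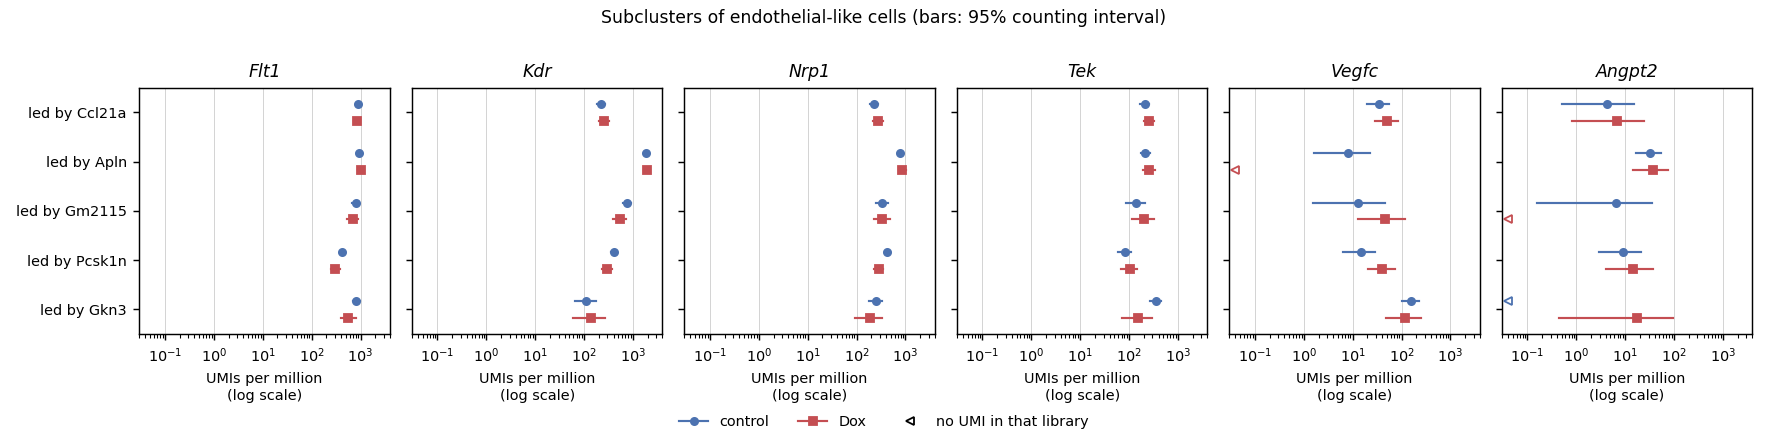
CPM, on a log axis, of the 4 receptors, Vegfc and Angpt2 in the 5 subclusters of endothelial-like cells, for control (blue circles) and Dox (red squares), with 95% counting intervals and open triangles where a library had no UMI. Kdr spanned 112 to 1808 in control, highest in the Apln-led capillary-like cells and lowest in the Gkn3-led artery-like cells, while Flt1 spanned 426 to 929.

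Of 48 other genes of the VEGF and angiopoietin pathway, 38 had at least 20 UMIs in RPE cells. Past 1.5-fold with an interval that leaves out 0, none of the 38 was higher and 12 were lower in Dox, where 1.41% and 6.87% of all 13858 genes were. Their median log2 ratio was -0.13, beside -0.04 over all genes tested. The 3 furthest below 0 were endothelial genes at very low levels: Ptprb, which encodes the phosphatase VE-PTP that restrains Tek, with 34 and 6 UMIs, Cd93 with 34 and 8, and Tie1, the partner receptor of Tek, with 28 and 10. The summed level of the 12 endothelial markers in RPE cells was 367 and 316, with 0 of 12 higher in Dox. The other 9 had log2 ratios from -1.46 to -0.68. They were Plxnd1, Hspg2, Pdgfra, Serpinf1, Pdgfrb, Nrp2, Adamts1, Rcan1 and Nr4a1, named after their values were seen, and each was higher in fibroblast-like than in RPE cells in both libraries. Among the named types, Pdgfra and Serpinf1 were highest in fibroblast-like cells in both libraries. Pdgfrb, Adamts1 and Nr4a1 were highest in smooth muscle or pericyte-like cells, Plxnd1 in endothelial-like cells and Nrp2 in melanocyte-like cells. The highest type of Hspg2 and of Rcan1 differed between the libraries. Pdgfra was at 201 and 183 in fibroblast-like cells and Serpinf1 at 1405 and 1372, against 12.3 and 6.49 and 76.8 and 42.2 in RPE cells. In RPE cells the 12 fibroblast markers summed to 1104 and 554, the 10 smooth muscle or pericyte markers to 392 and 262 and the 8 melanocyte markers to 2550 and 1737. The part of RNA of these types in the ratios was not tested. Hif1a and Epas1, which encode hypoxia-inducible factors that drive Vegfa and were chosen after their values were seen, had ratios of -0.04 (-0.10 to 0.02) and 0.03 (-0.02 to 0.08) in RPE cells.

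In fibroblast-like cells 45 of the 48 were measured, and 1 was higher and 3 were lower, where 1.32% and 3.4% of all genes were. Angpt4, an angiopoietin, was higher, with 115 control and 151 Dox UMIs and a log2 ratio of 0.67 (0.31 to 1.03). Pdgfb, the endothelial growth factor that recruits pericytes, had 54 and 11 UMIs, Cd93 had 102 and 24, and Ptprb had 109 and 48. The levels of Pdgfb, Cd93 and Ptprb in fibroblast-like cells were below 2 CPM in both libraries. In endothelial-like cells 40 were measured, and 1 was higher and 2 were lower, where 2.94% and 2.7% of all genes were. Apln, the ligand apelin made by sprouting tip cells, was 15.7 in control, from 27 UMIs, and 31.0 in Dox, from 28 UMIs. Its log2 ratio was 0.98 (0.16 to 1.80). Thbs2, an inhibitor of angiogenesis, was 29.1 and 15.5, and Serpinf1, which encodes the anti-angiogenic factor PEDF, was 279 and 167. Both genes were highest in fibroblast-like cells, Thbs2 at 94.6 and 106 and Serpinf1 at 1405 and 1372. In NK or T-like cells Thbs2 was at 23.5 and 29.2 and Serpinf1 at 328 and 230. The 12 fibroblast markers summed to 6022 and 4347 in endothelial-like cells, with 0 of 12 higher in Dox. The part of fibroblast RNA in the Thbs2 and Serpinf1 levels was not tested.

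Across the 8 named types in both libraries (16 groups, 6217 genes compared), the gene most like Flt1 was Cldn5, the tight junction gene claudin 5, with a Pearson r of 0.98 on log2(CPM + 1). The closest to Kdr was Adgrf5 (0.96), followed by Nos3 (0.96), the endothelial nitric oxide synthase gene. Podxl was closest to Tek (0.98). Pgf was closest to Aldh1a2 (0.99), a retinoic acid synthesis enzyme gene, Angpt1 to Ntn1 (0.98) and Nrp1 to Klf2 (0.98). Vegfb was closest to Tpd52l1 (0.94), followed by Tyr (0.92), the tyrosinase gene of pigment cells, and Vegfc to Sema3f (0.96). Vegfa had the weakest leading match, Mrps7 (0.90), and Angpt2 was closest to Ick (0.97). The groups share 2 libraries and their free RNA and differ in depth, so these values describe the pattern only.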

How the data were processed

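Single-cell 5′ libraries of pooled RPE, choroid and sclera were made from a control and a Dox group. The authors deposited filtered matrices of counts, whole UMIs per gene and cell, with no normalization, and per the file headers they were made with Cell Ranger 4.0.0. The submitters' processing notes name mm10. The libraries held 117731270 control and 103997248 Dox UMIs. From these, cells were kept that had more than 500 UMIs, between 200 and 6000 genes, a complexity (log10 genes over log10 UMIs) over 0.8 and a mitochondrial share under 0.2, after the study's methods. Cells were normalized with sctransform 0.4.2, integrated and clustered in Seurat 5.3.0 (SeuratObject 5.2.0, R 4.3.3) at a resolution of 0.1, on 2965 of 3000 features, since 35 member and pathway genes were left out. RPE cells were divided at 0.1 and endothelial-like cells at 0.3. Beside the limit on genes no doublets were removed in the main values, and removal by Scrublet score (scanpy 1.11.5) was an alternative.

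UMIs were summed per cell type and library and given per 1000000 UMIs (CPM), with exact Poisson intervals. Ratios had exact conditional binomial intervals, and shares Clopper-Pearson intervals, all at 95% (Python 3.11.15, numpy 2.4.6, scipy 1.17.1, pandas 2.3.3, matplotlib 3.10.9). Ratios past 1.5-fold were counted over genes with at least 20 UMIs in both libraries together. The ratio script was tested on simulated data. Depth sets the width of each interval, which holds no spread between mice. The named genes were the 10 members, the 3 largest ratios per direction and cell type among 48 pathway genes past 1.5-fold with an interval that leaves out 0, and the genes most like each member. The members and lists were chosen with earlier results of these data known. Alternatives covered cell filters, doublets, cluster resolution, the definition of RPE and endothelial cells, subtraction of the NK or T-like level, the mean of the cells' own levels, the minimum UMIs and the fold.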

Additional observations from a re-analysis of the deposited data

Results flagged for a closer look

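For 3 members the Dox over control ratio pointed one way in RPE cells and the opposite way in fibroblast-like cells, with 1 library per condition, so the difference was not tested. The log2 ratio of Pgf was -0.70 in RPE cells and 0.24 in fibroblast-like cells. That of Nrp1 was -0.72 and 0.17, and that of Angpt1 was -0.42 and 0.23. All 3 were far lower in RPE cells than in fibroblast-like cells, and the summed level of 12 fibroblast markers in RPE cells was 1104 in control and 554 in Dox. The Mgp-led subcluster, which held most of these UMIs in RPE cells, was 25.2% of control and 13.3% of Dox RPE cells. In the other 3 subclusters the ratio of Nrp1 was below 0, from -1.82 to -1.14, while that of Pgf ranged from -0.45 to 0.72. The -1.82 came from 10 and 3 UMIs in the Gm26917-led subcluster, under the minimum of 20, and its interval includes 0 (-4.32 to 0.14). The summed fibroblast markers were also lower in Dox in these 3 subclusters. They were 142 and 89.6 in the Ddc-led, 310 and 86.4 in the Serpina3n-led and 255 and 141 in the Gm26917-led one, with 4 of 12 higher in Dox in the last. The part of fibroblast RNA in the difference was not tested.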

How the results depend on the processing

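Of 146 values recomputed under alternatives, 125 stayed within the counting interval of the value reported, 18 moved beyond it and 3 reversed. The 3 reversed values changed sign where the reported interval leaves out 0. Some ratios whose reported interval includes 0 also changed sign and are not among the 3. Vegfa in RPE cells kept its sign in 8 of 11 alternatives and Vegfc in 10 of 11. In fibroblast-like cells Vegfc kept it in 6 of 7. In endothelial-like cells Kdr kept it in 8 of 9, and Nrp1 and Tek in 7 of 9. Tek was lowest, at -0.11, without the highest doublet scores. Each of the 10 members kept its highest cell type. The count of 2 ligands past 1.5-fold in RPE cells became 1 with the NK or T-like level taken off, 0 over every kept cell with at least 10 Rpe65 UMIs (1526 control and 1630 Dox cells) and 1 without the Mgp-led subcluster. The ligand past the fold with the NK or T-like level taken off was Vegfc, at -0.84, and not Pgf or Angpt2. Pgf, Angpt1 and Angpt2 then gave no ratio, as their levels were lower in RPE cells than in NK or T-like cells. The Vegfa ratio in RPE cells, 0.03, became -0.30 with the NK or T-like level taken off and -0.056 without the Mgp-led subcluster. In fibroblast-like cells the count of 0 ligands became 2 with the NK or T-like level taken off and 1 at a resolution of 0.2, where a cluster of 6967 control and 5167 Dox cells lost its name. With the NK or T-like level taken off, Vegfa reversed to -5.75, as almost nothing was left in Dox, and Vegfb to 0.38. At a resolution of 0.2 Vegfb reversed to 0.029. In endothelial-like cells Flt1 became -0.26 and Kdr -0.30 without the highest doublet scores, and -0.34 and -0.41 as the mean of the cells' own levels. Genes past the fold numbered 1640 in RPE, 1206 in fibroblast-like and 1573 in endothelial-like cells. With at least 50 UMIs they numbered 969, 657 and 588, and at a fold of 2 they numbered 732, 494 and 443. The cause was not tested where none is given. No paired analysis was possible because each condition had 1 library, and for the same reason no library could be left out.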
